A study of Homo sapiens with 12 samples.

Results

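The 10 genes described here, HIF1A, EPAS1, EGLN1, EGLN3, CA9, BNIP3, NDRG1, ADM, VEGFA and ANKRD37, make up a panel of the transcriptional response to low oxygen. They were chosen by symbol, and all 10 had a row among the 28008 genes of the count tables for each of 2 human pancreatic neuroendocrine tumor (pNET) lines, QGP-1 and BON-1. Both lines carried tet-MUC1shRNA, a hairpin against the MUC1 transcript that is expressed when doxycycline (DOX) is present. Cells received the vehicle DMSO or DOX at 500 ng/mL for 7 days, and RNA-seq was performed on 3 libraries per group, 12 in all, from cells cultured in triplicate. The libraries with DOX against those with vehicle address how silencing of MUC1-C, the transmembrane subunit of the MUC1 protein, changes the transcriptome of each line. All groups carried the inducible hairpin, and because the libraries used here include none from cells with a control hairpin, the effects of DOX and of the hairpin cannot be told apart. The lines were grown in different media, so the line and its medium cannot be told apart either, and no library was exposed to low oxygen as far as the labels state.

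In cells with enough oxygen, the prolyl hydroxylases encoded by EGLN1 and EGLN3 mark the alpha subunits of the hypoxia-inducible factors (HIF) for ubiquitination by the VHL complex and degradation. When oxygen is short the alpha subunits, encoded by HIF1A and EPAS1, persist, pair with ARNT and bind hypoxia response elements in the DNA. The genes switched on in this way include those for pH control (CA9), mitophagy (BNIP3), vessel growth (VEGFA) and vasodilation (ADM), and in pancreatic neuroendocrine tumors the loss of VHL in von Hippel-Lindau disease engages the same pathway. HIF activity is set mainly at the protein level, which RNA-seq does not measure.

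The total count per library was 38224144 to 50525926 for QGP-1 and 15981954 to 28484324 for BON-1 cells. MUC1 itself, the target of the hairpin, fell from 6.21 ± 0.846 (SD, n = 3) to 0.829 ± 0.183 counts scaled to library size with TMM factors (CPM) in QGP-1 cells and from 19.0 ± 2.91 to 2.70 ± 1.25 CPM in BON-1 cells (edgeR adjusted p = 8.24e-07 and 6.51e-11). Of the 10 neuroendocrine markers listed, 9 passed the filter on low counts in QGP-1 cells, where NEUROD1 was at 0, and all 10 passed in BON-1 cells. With DOX 0 were lower and 3 higher in QGP-1 cells, beside 17.7% lower and 17.3% higher of all genes tested there. Their summed level in QGP-1 cells was 6155 to 6998 CPM with vehicle and 7214 to 7827 CPM with DOX. The BON-1 calls were 3 lower and 2 higher, beside 18.3% and 17.0% of all genes tested, with a summed level of 12445 to 15984 CPM against 10086 to 10539.6 CPM. The granule gene CHGA alone went from a mean of 8104 to 2936 CPM there, and without it the sum was 5910 to 6656 CPM with vehicle and 7339 to 7410.0 CPM with DOX. Markers of endothelium, fibroblasts, blood and acinar cells were below 1 CPM in every library for 10 of 13 genes in each line. The summed level of those 13 markers was 87.9 to 156 CPM with vehicle and 32.1 to 43.2 CPM with DOX in QGP-1 cells, mostly from the trypsinogen gene PRSS1, and 61.1 to 73.0 against 71.7 to 78.3 CPM in BON-1 cells. Among the few that were tested, 2 were lower and 0 higher in QGP-1 cells and 2 were lower and 1 higher in BON-1 cells. The part of these markers in the results was not tested.

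Promoter sequences were available in RefSeq (GRCh38.p14) for 8 of the 10 genes, all but VEGFA and NDRG1. The core letters of a hypoxia response element were searched as ACGTG and GCGTG on both strands of a window from 250 bases before to 50 bases after each annotated start. One or the other was present for 7 of the 8 genes, against 48.4% of all 35116 promoter windows. That share counts windows and not genes. The windows of the 7 genes that hold a core were 62% to 80.7% G or C, which the share over all windows was not matched for. ACGTG lay in the windows of EGLN1, CA9, BNIP3 and ANKRD37, and in 21.4% of all windows. GCGTG lay in those of HIF1A (1 of its 2 windows), EPAS1, BNIP3 and ADM, and in 36.5% of all windows. The 250 bases before the start are printed for 6 genes, the ones whose levels moved most or moved in both lines, 5′ to 3′ on the strand of the gene, with either core or its reverse complement in capitals. The window of EGLN3 has no capitals, since neither core occurs in these letters. A match is a description of the letters and not evidence of a binding site. The palindrome CACGTG holds the ACGTG core on both strands, and is seen in BNIP3 and ANKRD37. The positions on GRCh38 are chr2:46297157-46297406 for EPAS1 (plus strand), chr14:33951075-33951324 for EGLN3 (minus strand), chr9:35673678-35673927 for CA9 (plus strand), chr10:131981924-131982173 for BNIP3 (minus strand), chr11:10304823-10305072 for ADM (plus strand) and chr4:185396591-185396840 for ANKRD37 (plus strand).
EPAS1: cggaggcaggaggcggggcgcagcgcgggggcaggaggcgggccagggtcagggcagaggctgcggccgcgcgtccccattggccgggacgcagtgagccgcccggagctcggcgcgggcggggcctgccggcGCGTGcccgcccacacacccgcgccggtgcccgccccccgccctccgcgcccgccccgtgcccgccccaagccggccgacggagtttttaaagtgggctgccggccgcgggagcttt
EGLN3: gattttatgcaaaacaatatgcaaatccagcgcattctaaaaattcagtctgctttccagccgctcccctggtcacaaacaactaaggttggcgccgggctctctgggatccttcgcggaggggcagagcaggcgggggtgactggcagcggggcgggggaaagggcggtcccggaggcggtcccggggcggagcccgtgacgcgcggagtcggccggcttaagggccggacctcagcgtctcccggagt
CA9: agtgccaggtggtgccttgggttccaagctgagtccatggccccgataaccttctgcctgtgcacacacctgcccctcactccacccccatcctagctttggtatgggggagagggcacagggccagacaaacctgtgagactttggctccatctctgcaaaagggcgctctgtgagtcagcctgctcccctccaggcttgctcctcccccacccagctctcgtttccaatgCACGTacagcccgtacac
BNIP3: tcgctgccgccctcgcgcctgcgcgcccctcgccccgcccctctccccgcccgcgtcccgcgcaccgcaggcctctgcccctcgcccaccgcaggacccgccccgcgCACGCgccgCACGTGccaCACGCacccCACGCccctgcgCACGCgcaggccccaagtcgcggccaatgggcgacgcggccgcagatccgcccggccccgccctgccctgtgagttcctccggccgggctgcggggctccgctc
ADM: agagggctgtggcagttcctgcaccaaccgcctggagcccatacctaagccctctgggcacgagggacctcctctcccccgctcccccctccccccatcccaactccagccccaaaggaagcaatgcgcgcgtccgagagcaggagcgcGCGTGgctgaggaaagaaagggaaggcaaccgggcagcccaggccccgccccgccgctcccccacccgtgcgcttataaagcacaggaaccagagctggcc
ANKRD37: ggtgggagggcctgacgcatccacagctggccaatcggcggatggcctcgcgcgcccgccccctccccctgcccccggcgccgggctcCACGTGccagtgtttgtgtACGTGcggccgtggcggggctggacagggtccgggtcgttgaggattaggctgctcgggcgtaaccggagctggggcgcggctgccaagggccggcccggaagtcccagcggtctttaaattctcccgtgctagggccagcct

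The core nearest to a start was in EGLN1, 13 bases before it, followed by CA9 at 18 bases. In ADM and EPAS1 the single GCGTG began 101 and 117 bases before the start. BNIP3 held the most matches, with 2 of ACGTG and 4 of GCGTG between 143 and 104 bases before the start, where the 2 of ACGTG are 1 palindrome read on both strands.

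In QGP-1 cells, libraries with DOX had lower EGLN3, BNIP3, VEGFA and ANKRD37 and higher EPAS1 in normalized counts; BNIP3 and VEGFA changed sign on the TPM scale, as given below. Of the 10 genes, 9 passed the filter on low counts, and of these 4 were lower and 1 was higher at an adjusted p below 0.05 from edgeR's quasi-likelihood test, adjusted over all 15089 genes tested. The share called was 55.6% of the 9 genes and 35.0% of all genes tested, with 17.7% of all genes lower and 17.3% higher. Their median log2 fold change was −0.27, against −0.01 for all genes. In BON-1 cells, by contrast, the calls were ADM, NDRG1 and EPAS1 higher and CA9 lower, and the other 6 genes did not pass the threshold. These 3 higher calls were not made on the TPM scale. On log2(TPM + 1), 0 of the 10 genes and only 34 of all 11954 genes tested were called higher in BON-1 cells. The share called was thus 4 of 10 genes, against 35.3% of the 14625 genes tested, with 18.3% of those lower and 17.0% higher, and their median log2 fold change was 0.13, against −0.01 for all genes. EPAS1 was the only one of the 10 genes called in the same direction in both lines, as were 6.88% of all genes tested in both for the higher direction. In bulk libraries, a lower level in every cell and fewer cells with the transcript cannot be told apart.

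**Figure D1:**
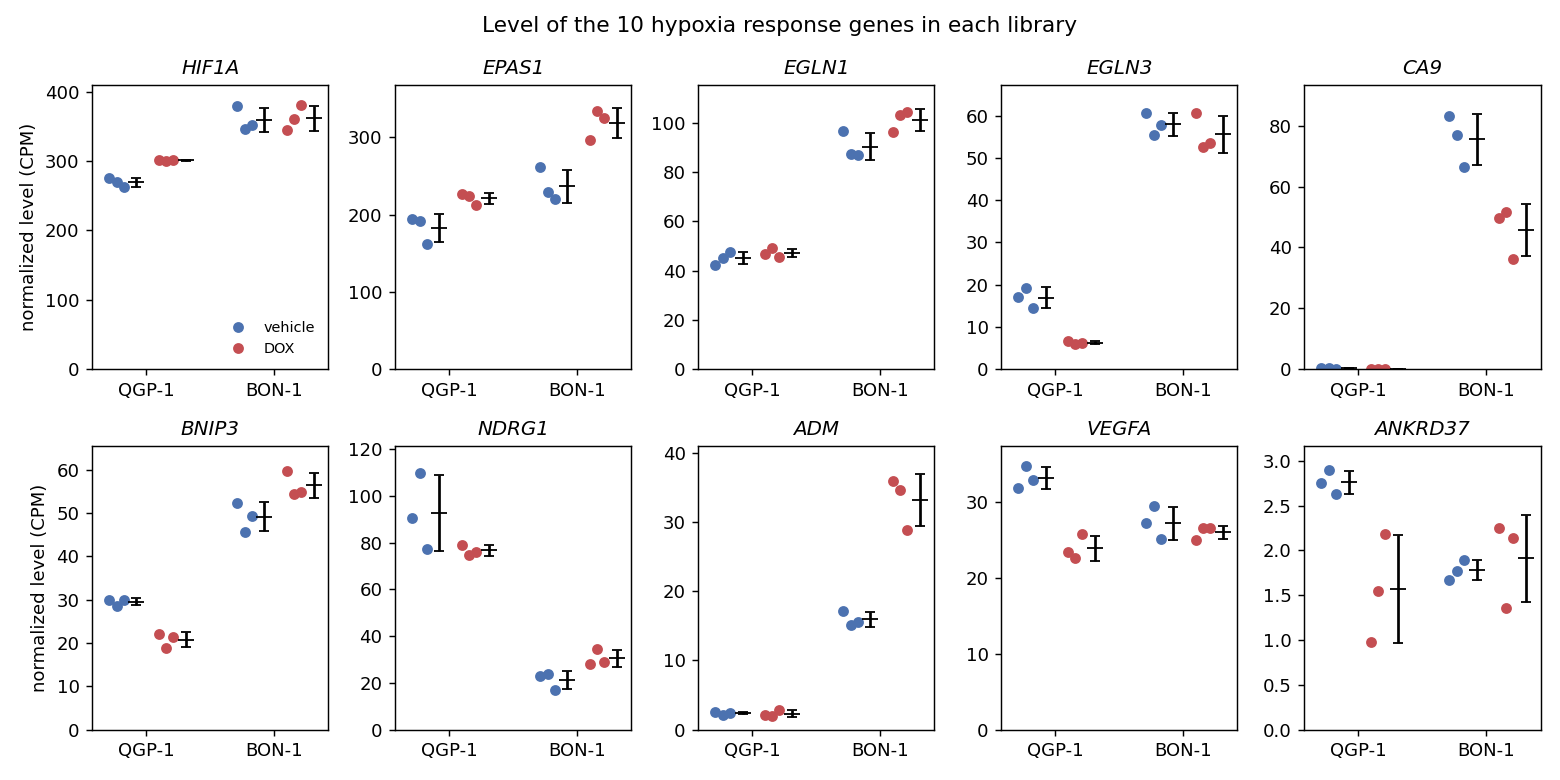
Normalized level (CPM, linear axis from 0) of each of the 10 hypoxia response genes in the 12 libraries; blue points are vehicle and red points DOX, and the black bar beside each group is its mean ± SD (n = 3). EGLN3 falls to about 6 CPM in each QGP-1 library with DOX while its BON-1 groups overlap, and ADM rises above 28 CPM in each BON-1 library with DOX while its QGP-1 groups overlap.

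HIF1A encodes the alpha subunit HIF-1α, and lies on chromosome 14 from 61695513 to 61748259 (plus strand, GENCODE v44, as for all positions of genes given here). It overlaps the antisense genes HIF1A-AS1, which was at most 0.333 CPM in any library, and HIF1A-AS3, which is not among the genes counted. On its own strand it shares 14122 bases with the noncoding gene ENSG00000258964 and 1766 bases with the noncoding gene ENSG00000288928. In QGP-1 cells HIF1A stood at 276, 270 and 263 CPM with vehicle and at 302, 300.4 and 301 CPM with DOX. Each library with DOX was above each with vehicle, but the log2 fold change was only 0.16 (standard error, SE, 0.06) and missed the threshold (edgeR adjusted p = 0.0558). DESeq2 on the same counts placed it past the threshold at a log2 fold change of 0.16 (adjusted p = 0.0326), as did library size scaling and a replicate block. In BON-1 cells HIF1A was at 379, 346 and 353 CPM with vehicle and 345, 360 and 381 CPM with DOX. These groups overlapped, and the interval of the log2 fold change was −0.14 to 0.16 (95%).

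EPAS1 encodes HIF-2α, the alpha subunit that is prominent in endothelium and in tumors without VHL, and lies on chromosome 2 from 46293667 to 46386697. Its QGP-1 levels were 194, 191 and 162 CPM with vehicle and 227, 224 and 213 CPM with DOX, a log2 fold change of 0.28 (SE 0.08, edgeR adjusted p = 0.0125). In BON-1 cells it stood at 261, 230 and 220 CPM with vehicle and at 297, 335 and 325 CPM with DOX, a log2 fold change of 0.43 (SE 0.08, edgeR adjusted p = 0.000111). The groups did not overlap in either line, and the call held in each of the 6 fits per line that left out 1 library, although in BON-1 cells it was lost on the TPM scale. The difference between the lines in this response was 0.16 on the log2 scale and did not pass the threshold (adjusted p = 0.393 from the interaction of line and DOX in edgeR). The gene whose pattern over the 12 libraries was most like that of EPAS1 was RNF4, which encodes a ubiquitin ligase that recognizes SUMO chains. After each gene was centred within each line, the root mean square difference between the 2 genes was 0.0488 on the log2 CPM scale, the smallest among 13534 genes tested in both lines. The log2 fold changes of RNF4 were 0.27 in QGP-1 and 0.43 in BON-1 cells.

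EGLN1 encodes PHD2, the main oxygen sensor of the pathway, and lies on chromosome 1 from 231363751 to 231422287 (minus strand). It shares 58491 bases with ENSG00000287856, a protein-coding gene on the same strand. How the counting treated reads shared between them is not given in the sources used here. In QGP-1 cells EGLN1 was at 42.4, 45.3 and 47.5 CPM with vehicle and at 46.8, 49.1 and 45.7 CPM with DOX. In BON-1 cells it was at 96.9, 87.5 and 86.8 CPM against 96.3, 103 and 104 CPM. The groups overlapped in both lines, and the 95% intervals of the log2 fold change were −0.10 to 0.24 and 0.000364 to 0.33.

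EGLN3 encodes PHD3, a prolyl hydroxylase whose own transcript is a HIF target, and lies on chromosome 14 from 33924227 to 34462774 (minus strand), where it shares 29453 bases with SPTSSA on the same strand. In QGP-1 cells its level was 16.97, 19.3 and 14.4 CPM with vehicle and 6.61, 5.93 and 6.13 CPM with DOX. Each library with DOX was below 7 CPM and each with vehicle above 14 CPM, and the level with DOX was 0.369 of that with vehicle. This was the largest change among the 9 genes tested in that line, at a log2 fold change of −1.44 (SE 0.13, edgeR adjusted p = 3.10e-06). In BON-1 cells EGLN3 was at 60.8, 55.4 and 57.8 CPM with vehicle and 60.7, 52.6 and 53.6 CPM with DOX, with an interval of the log2 fold change from −0.24 to 0.12. The response differed between the lines by 1.38 on the log2 scale (SE 0.15, adjusted p = 8.54e-07 in the edgeR interaction). The paralogs EGLN1 and EGLN3 thus gave unlike values in QGP-1 cells, and EGLN2, the third member of the family, had 0 counts in each QGP-1 library and 3 counts over the 6 BON-1 libraries. EGLN2 shares 9423 bases on its strand with the read-through gene RAB4B-EGLN2, which had 0 counts in each of the 12 libraries, and its level is therefore given only as listed.

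**Figure D2:**
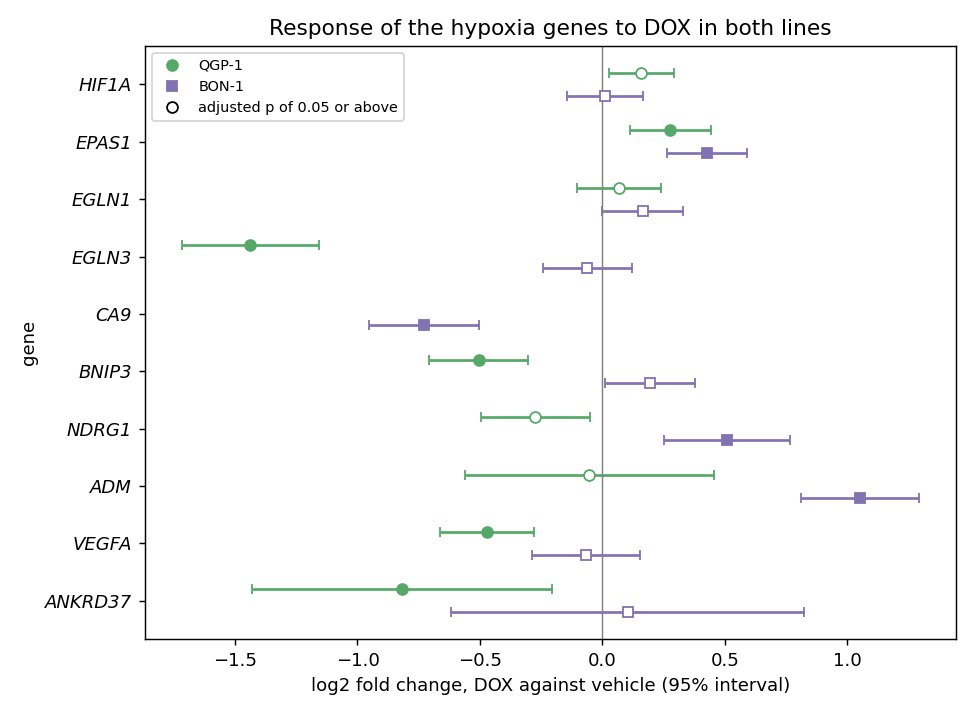
Log2 fold change of DOX against vehicle with its 95% interval for each gene in QGP-1 (green circles) and BON-1 (purple squares); filled symbols have an adjusted p below 0.05 from edgeR, and CA9 has no QGP-1 symbol because it did not pass the filter on low counts. EGLN3, BNIP3, VEGFA and ANKRD37 lie below 0 with filled circles in QGP-1 cells, whereas ADM and NDRG1 lie above 0 with filled squares in BON-1 cells.

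CA9 encodes carbonic anhydrase IX, a membrane enzyme of pH control that serves as a tissue marker of hypoxia. It lies on chromosome 9 from 35673928 to 35681159, and 1939 bases of it are shared with ARHGEF39 on the opposite strand. In BON-1 cells it was at 83.2, 77.0 and 66.6 CPM with vehicle and at 49.7, 51.7 and 36.0 CPM with DOX. The groups did not overlap, and the log2 fold change was −0.73 (SE 0.11, edgeR adjusted p = 6.40e-06), with values from −0.84 to −0.60 when 1 library was left out. This call was lost in the limma test on log2(TPM + 0.1), where 0 of the 10 genes were called lower in BON-1 cells. QGP-1 cells held next to no CA9, with 16, 7 and 2 counts with vehicle and 0, 1 and 0 counts with DOX, and the gene did not pass the filter on low counts there. Pooled over the 3 libraries this was 25 counts against 1, a ratio of 0.0405 with an exact 95% interval of 0.000987 to 0.248 that covers counting error only. Of the 13 other carbonic anhydrase genes, 6 passed the filter in each line, 2 were lower and 0 higher in QGP-1 cells, and 1 was lower and 1 higher in BON-1 cells. Of all genes tested, 17.7% were lower and 17.3% higher in QGP-1 cells and 18.3% and 17.0% in BON-1 cells. CA13, a cytosolic form, was lower in both, at log2 fold changes of −1.03 and −0.58 (edgeR adjusted p = 0.000142 and 0.00501). CA12, another form that HIF is known to raise, was at 1.35 to 3.12 CPM in BON-1 cells, with a log2 fold change of −0.43 that did not pass the threshold (edgeR adjusted p = 0.386).

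BNIP3 encodes a receptor on the outer mitochondrial membrane that recruits the autophagy machinery, and lies on chromosome 10 from 131967684 to 131981967 (minus strand). Its QGP-1 levels were 30.0, 28.5 and 29.9 CPM with vehicle and 22.0, 18.8 and 21.4 CPM with DOX. Here each library with DOX was the lower one, at a log2 fold change of −0.51 (SE 0.09, edgeR adjusted p = 0.000913). In BON-1 cells the levels were 52.4, 45.7 and 49.3 CPM with vehicle and 59.8, 54.4 and 54.9 CPM with DOX. Each BON-1 library with DOX was the higher one, but the log2 fold change of 0.20 (SE 0.09) missed the threshold (edgeR adjusted p = 0.0901). The responses differed between the lines by 0.71 on the log2 scale (SE 0.13, adjusted p = 0.000448 in the edgeR interaction). GENCODE holds 44 pseudogenes named after BNIP3, and how the counting treated reads shared with them is not given in the sources used here, so its values are uncertain to that extent. Its paralog BNIP3L, which acts in the same way at mitochondria, showed log2 fold changes of −0.27 in QGP-1 and 0.14 in BON-1 cells (edgeR adjusted p = 0.0268 and 0.199).

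NDRG1, a stress-response gene whose product takes part in cell differentiation and lipid handling, lies on chromosome 8 from 133237175 to 133302022 (minus strand). In BON-1 cells it was at 23.1, 24.0 and 17.002 CPM with vehicle and at 28.2, 34.7 and 28.8 CPM with DOX, without overlap. Its log2 fold change was 0.51 there (SE 0.13, edgeR adjusted p = 0.0021), a call lost on the TPM scale. In QGP-1 cells it was at 90.8, 110.0 and 77.5 CPM with vehicle and 79.1, 74.9 and 76.1 CPM with DOX, with overlap at vehicle replicate 3. The log2 fold change of −0.27 (SE 0.10) missed the threshold (edgeR adjusted p = 0.0529), and the 6 fits without 1 library ranged from −0.39 without vehicle replicate 3, which passed (adjusted p = 0.00422), to −0.13 without vehicle replicate 2 (adjusted p = 0.323). DESeq2 and a different filter on low counts also placed it past the threshold. The responses differed between the lines by 0.79 on the log2 scale (SE 0.18, adjusted p = 0.00274 in the edgeR interaction). The family member NDRG2 was lower in both lines, at log2 fold changes of −0.81 and −1.01 (edgeR adjusted p = 0.000515 and 8.10e-09). NDRG3 was lower in BON-1 cells alone by the threshold, at −0.37 against −0.09 in QGP-1 cells, and NDRG4 was higher in QGP-1 cells at 0.23 against −0.24 in BON-1 cells. For NDRG2, NDRG3 and NDRG4 the difference between the lines did not pass the threshold.

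ANKRD37 encodes a small ankyrin repeat protein and is a direct HIF-1 target, and it lies on chromosome 4 from 185396021 to 185400628. It shares 1092 bases with UFSP2 on the opposite strand. In QGP-1 cells it was at 2.75, 2.89 and 2.63 CPM with vehicle and 0.974, 1.55 and 2.18 CPM with DOX. The groups did not overlap, and the libraries with DOX lay farther apart than those with vehicle. The log2 fold change was −0.82 (SE 0.29, edgeR adjusted p = 0.0379), and leaving out any 1 library except DOX replicate 3 lost the call, in 5 of 6 fits. It passed in the fit without DOX replicate 3, at −1.14, while the other 5 fits gave values of −0.55 and beyond with adjusted p up to 0.106. In BON-1 cells ANKRD37 was at 1.67, 1.77 and 1.89 CPM with vehicle and 2.25, 1.35 and 2.14 CPM with DOX, which overlapped.

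VEGFA encodes the main growth factor for blood vessels, and lies on chromosome 6 from 43770184 to 43786487. In QGP-1 cells it stood at 31.9, 34.8 and 33.0 CPM with vehicle and at 23.4, 22.6 and 25.8 CPM with DOX. Each library with DOX was lower, at a log2 fold change of −0.47 (SE 0.09, edgeR adjusted p = 0.00113). In BON-1 cells it was at 27.2, 29.5 and 25.1 CPM with vehicle and 25.1, 26.6 and 26.6 CPM with DOX, and the interval of the log2 fold change was −0.29 to 0.16. The difference between the lines was 0.42 (SE 0.14, adjusted p = 0.0438 in the edgeR interaction), a call that did not hold in 10 of the 12 fits without 1 library (all but those without QGP-1 DOX replicate 3 or BON-1 vehicle replicate 2), where the difference ranged from 0.34 to 0.47. Of the 9 other VEGF ligands and receptors, 5 passed the filter in QGP-1 and 7 in BON-1 cells, with 1 lower and 1 higher in the former and 3 lower and 2 higher in the latter. The shares of all genes were 17.7% lower and 17.3% higher in QGP-1 and 18.3% and 17.0% in BON-1 cells. NRP1, a coreceptor of VEGFA, was higher in both lines, at log2 fold changes of 0.52 and 0.45 (edgeR adjusted p = 3.55e-05 and 2.31e-05). It rose from between 125 and 127 CPM to between 174 and 185 CPM in QGP-1 cells and from between 392 and 418 CPM to between 544 and 559 CPM in BON-1 cells. The related coreceptor NRP2 was higher in BON-1 cells, from 2.70, 2.75 and 3.72 CPM to 7.57, 7.70 and 7.28 CPM, a log2 fold change of 1.31. The ligand VEGFB was lower in QGP-1 cells at −0.59, and its difference between the lines did not pass the threshold (0.22, adjusted p = 0.617 in the edgeR interaction). In BON-1 cells the ligand gene PGF and the receptor genes FLT1 and FLT4 were lower at −2.43, −2.43 and −0.99, each from a level with vehicle of at most 2.39 CPM.

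ADM encodes adrenomedullin, a secreted peptide that dilates vessels, and lies on chromosome 11 from 10305073 to 10307397. In BON-1 cells it was at 17.1, 15.1 and 15.6 CPM with vehicle and at 36.0, 34.6 and 28.9 CPM with DOX. The level rose 2.07-fold, the largest change of the 10 genes in that line, at a log2 fold change of 1.05 (SE 0.12, edgeR adjusted p = 5.87e-08), and this call too was lost on the TPM scale. In QGP-1 cells it was at 2.52, 2.17 and 2.43 CPM with vehicle and 2.05, 1.95 and 2.86 CPM with DOX. These groups overlapped, and the interval of the log2 fold change was wide, from −0.56 to 0.45. The response differed between the lines by 1.11 on the log2 scale (SE 0.22, adjusted p = 0.000925 in the edgeR interaction).

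Of the genes of the adrenomedullin axis other than ADM, 5 were tested in both lines. The interaction test called 1 response higher in BON-1 cells and 3 lower, against 10.3% and 9.23% of all genes tested in both. For ADM2 the difference did not pass the threshold (0.08, adjusted p = 0.946 in the edgeR interaction). CALCRL, the receptor for adrenomedullin, was lower in QGP-1 cells (7.06, 5.07 and 7.19 CPM against 2.84, 4.13 and 4.28 CPM) and higher in BON-1 cells (27.6, 25.1 and 28.8 CPM against 41.8, 43.4 and 43.9 CPM). Its log2 fold changes were −0.78 and 0.67 (edgeR adjusted p = 0.00727 and 5.28e-06), and they differed between the lines by 1.46 (adjusted p = 2.30e-05 from the edgeR interaction). PAM, the enzyme that amidates adrenomedullin and many other peptides, went the opposite way, at 0.59 in QGP-1 and −0.34 in BON-1 cells. The receptor activity modifying proteins RAMP1 and RAMP2, which pair with CALCRL, were lower in BON-1 cells at −0.97 and −2.15. RAMP1 had 0 CPM in each QGP-1 library, and RAMP2 had a log2 fold change of 0.47 there that did not pass the threshold. ACKR3, which removes adrenomedullin and the chemokine CXCL12 from the surroundings of cells, was lower in both lines at −0.59 and −1.32. Its response differed between the lines by −0.72 (adjusted p = 0.00839 in the edgeR interaction). Of the 8 genes of this axis other than ADM, 5 passed the filter in QGP-1 cells, with 2 lower and 1 higher, and 7 in BON-1 cells, with 4 lower and 2 higher. Beside these, 17.7% of all genes were lower and 17.3% higher in QGP-1 cells, and 18.3% and 17.0% in BON-1 cells.

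Across the panel, 5 of the 9 genes tested in both lines had a response that was higher in BON-1 than in QGP-1 cells by the interaction test, and 0 had one that was lower, against 10.3% and 9.23% of the 13535 genes tested in both lines and 19.5% for both directions together. The 5 were EGLN3, BNIP3, NDRG1, ADM and VEGFA. CA9, which did not pass the filter in QGP-1 cells, was left out of this comparison. By levels alone, the vehicle and DOX groups did not overlap for 6 of the 9 genes tested in QGP-1 cells and for 5 of the 10 in BON-1 cells, against 46.7% and 46.3% of all genes tested. Those of QGP-1 cells were 4 lower and 2 higher with DOX, against 23.2% and 23.5% of all genes, and in BON-1 cells 1 was lower and 4 were higher, against 23.9% and 22.4%.

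With vehicle alone, each of the 9 genes differed between the lines at an adjusted p below 0.05 from edgeR, as did 74.7% of all genes tested in both, and 6 were higher and 3 lower in BON-1 cells, against 36.7% and 38.0% of all genes. EGLN3 was higher in BON-1 cells by 1.70 on the log2 scale, ADM by 2.67 and EGLN1 by 0.93. NDRG1 was lower in BON-1 cells by 2.19 on the log2 scale, with smaller differences for VEGFA (−0.36) and ANKRD37 (−0.72), the last of which did not hold in the 6 fits that each lacked 1 of the vehicle libraries (values from −0.77 to −0.68 over all 12 fits). For CA9 the levels were 0.0402 to 0.420 CPM in QGP-1 and 66.6 to 83.2 CPM in BON-1 cells. The genes that were called higher with DOX in BON-1 cells thus included ADM, which already stood above its QGP-1 level, and NDRG1, which stood below it.

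On the deposited TPM scale, which takes gene length into account, HIF1A was first in both lines with vehicle, at a mean of 23.0 TPM in QGP-1 and 76.1 TPM in BON-1 cells. In QGP-1 cells EPAS1 (13.2 TPM), NDRG1 (10.2), BNIP3 (7.70), VEGFA (3.33), EGLN3 (2.44), EGLN1 (2.31), ANKRD37 (1.48), ADM (0.641) and CA9 (0.0601) followed. Of these neighbours EPAS1 and NDRG1, NDRG1 and BNIP3, and EGLN3 and EGLN1 overlapped in their vehicle libraries. The order in BON-1 cells placed CA9 (52.1 TPM) next to HIF1A, ahead of EPAS1 (42.1), BNIP3 (31.7), EGLN3 (20.7), EGLN1 (11.5), ADM (10.6), VEGFA (6.88), NDRG1 (5.89) and ANKRD37 (2.39). Here the overlapping neighbours were CA9 and EPAS1, EGLN1 and ADM, and VEGFA and NDRG1. CA9 thus moved from the last place in QGP-1 to the second in BON-1 cells. TPM values were compared only within a line, since the noncoding RNAs RN7SK, RN7SL1 and RN7SL2 took 50.9% to 80.3% of all TPM in the libraries with vehicle.

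**Figure D3:**
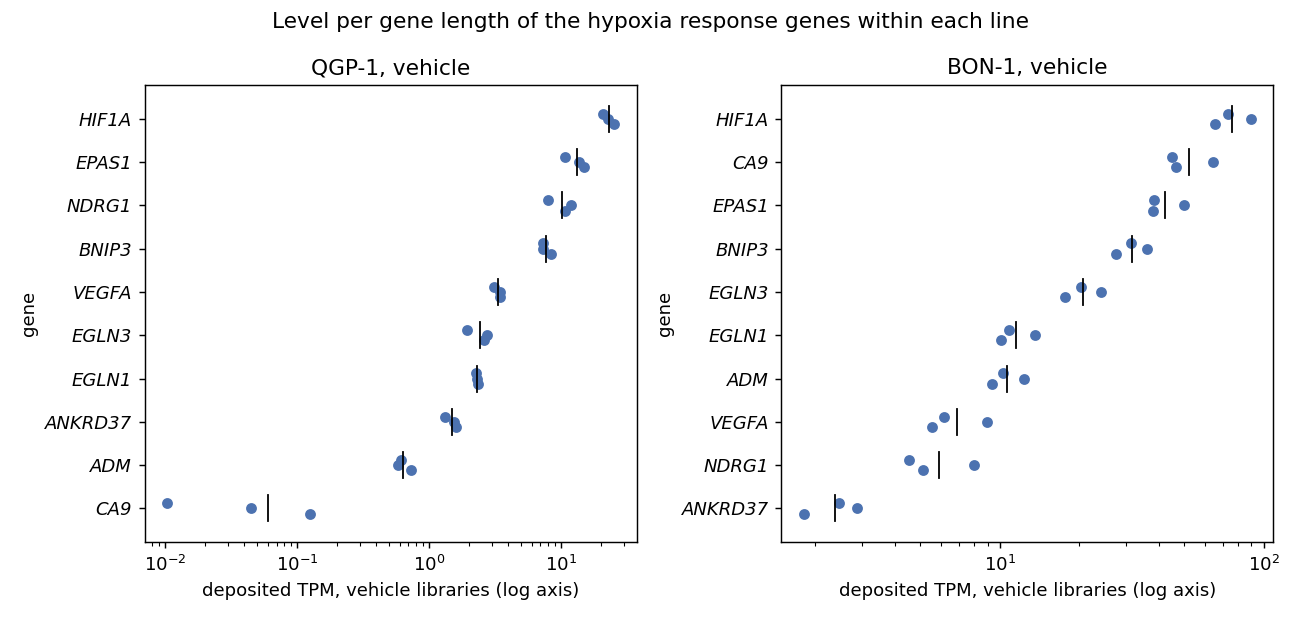
Deposited TPM (log axis) of the 10 genes in the 3 vehicle libraries of each line, ordered by the mean (black line). HIF1A leads both panels, and CA9 is last in QGP-1 at 0.0601 TPM and second in BON-1 at 52.1 TPM.

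The scale of the values bears on directions. A limma test on log2(TPM + 1) moved the median over all genes to a log2 fold change of 0.59 in QGP-1 and −0.31 in BON-1 cells, and on that scale the QGP-1 values of BNIP3 (0.20), VEGFA (0.21) and NDRG1 (0.44) and the BON-1 value of BNIP3 (−0.16) changed sign. Relative to the median of all genes these values were −0.39, −0.38, −0.15 and 0.15. The BON-1 values of HIF1A (−0.35), EGLN1 (−0.18) and ANKRD37 (−0.18), none of them called on counts, changed sign as well. The value of EGLN3 in QGP-1 cells relative to that median was −1.05. Those of ADM, NDRG1, EPAS1 and CA9 in BON-1 cells were 0.95, 0.45, 0.38 and −0.76. The calls of ADM, NDRG1 and EPAS1 in BON-1 cells were lost on this scale, at limma adjusted p of 0.289, 0.822 and 0.921, and so was that of ANKRD37 in QGP-1 cells (−0.06, limma adjusted p = 0.695). Only 34 of the 11954 genes tested in BON-1 cells were called higher on this scale. In QGP-1 cells 8 of the 10 genes were tested on this scale, and 4 were called higher, as were 9149 of all 10561 genes tested. They were EPAS1, EGLN1 and HIF1A at 0.97, 0.61 and 0.87, which relative to the median were 0.37, 0.014 and 0.28, and NDRG1 with the turned sign given above. The 3 noncoding RNAs named above took 78.8% to 80.3% of TPM with vehicle and 71.2% to 75.4% with DOX in QGP-1 cells, and 50.9% to 65.6% against 53.4% to 74.3% in BON-1 cells. Their part in the shift was not tested.

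Beyond the panel, genes of the oxygen sensing machinery were called in both directions. Of the 19 listed, 14 were tested in QGP-1 cells, with 2 lower and 4 higher, and 15 in BON-1 cells, with 1 lower and 6 higher, beside 17.7% and 17.3% of all genes in QGP-1 and 18.3% and 17.0% in BON-1 cells. One of the 6 was HIF1A-AS2, an RNA antisense to HIF1A, with 10, 8 and 14 counts with vehicle and 28, 17 and 29 counts with DOX (log2 fold change 1.51, edgeR adjusted p = 0.0213), which cannot be told apart from reads of HIF1A if the counting did not use strand. VHL, the substrate receptor of the ligase that removes HIF alpha subunits, was the only one of the list higher in both lines. It rose from 73.0, 71.5 and 68.5 CPM to 86.2, 88.1 and 83.1 CPM in QGP-1 cells and from 49.9, 49.8 and 47.1 CPM to 64.8, 67.6 and 62.7 CPM in BON-1 cells. Its log2 fold changes were 0.27 and 0.41 (edgeR adjusted p = 0.00774 and 0.000408). RBX1, the RING subunit of the same ligase and of other cullin ligases, was lower in QGP-1 cells, from 24.1, 28.3 and 29.0 CPM to 13.5, 13.3 and 14.1 CPM, a log2 fold change of −1.0 (edgeR adjusted p = 9.71e-06). In BON-1 cells RBX1 had a log2 fold change of −0.07 (edgeR adjusted p = 0.593).

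Among the partners of the alpha subunits, ARNT was higher in BON-1 cells at a log2 fold change of 0.51, from 103, 91.5 and 104 CPM to 141, 142 and 142 CPM. Its QGP-1 value of 0.19 missed the threshold (edgeR adjusted p = 0.0654), although the groups did not overlap there either. HIF1AN, the asparaginyl hydroxylase that blocks HIF coactivator binding, was higher in BON-1 cells at 0.46 and had a value of 0.15 in QGP-1 cells (edgeR adjusted p = 0.221), and CITED2, which competes for the same coactivators, was higher in BON-1 cells at 0.38. The coactivator genes EP300 and CREBBP were higher in QGP-1 cells at 0.50 and 0.41, and had values of 0.12 and 0.02 in BON-1 cells. For HIF1AN, EP300 and CREBBP the difference between the lines did not pass the threshold (adjusted p = 0.101, 0.0531 and 0.0575 in the edgeR interaction). The membrane-bound hydroxylase gene P4HTM was lower in QGP-1 cells at −0.49, against −0.37 in BON-1 cells (edgeR adjusted p = 0.0626). SIAH2, which encodes a ligase for prolyl hydroxylases, was lower in BON-1 cells at −0.39, against 0.07 in QGP-1 cells (edgeR adjusted p = 0.659). For P4HTM and SIAH2 the difference between the lines missed the threshold (adjusted p = 0.659 and 0.059 in the edgeR interaction). On log2(TPM + 1) as it stands P4HTM turned to 0.22 in QGP-1 cells, and relative to the median of all genes it was −0.38.

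**Figure D4:**
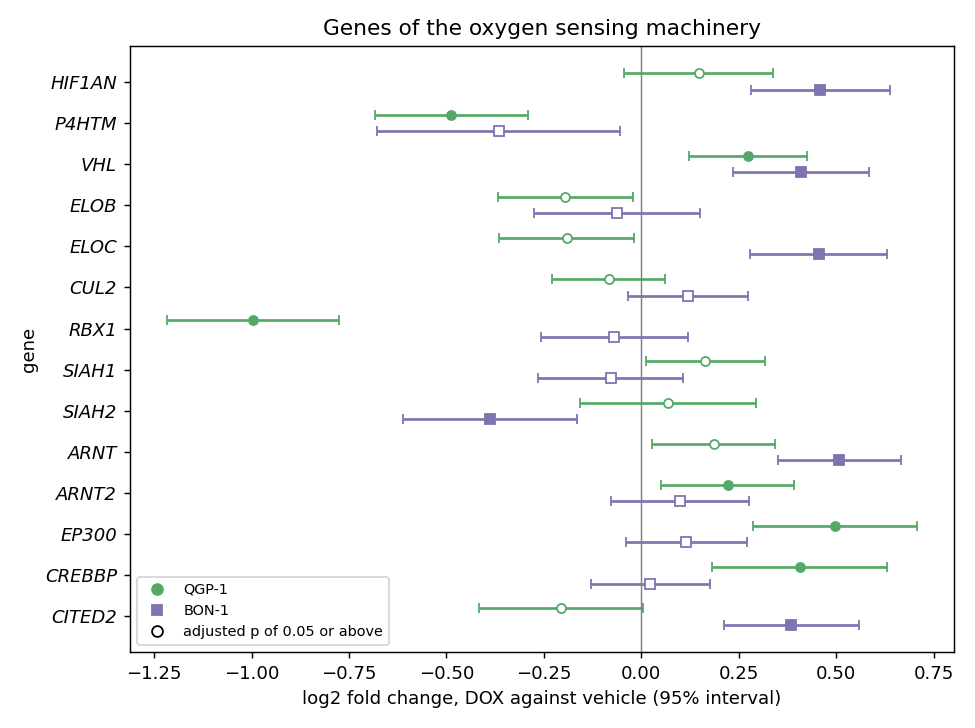
Log2 fold change of DOX against vehicle with its 95% interval for the oxygen sensing genes tested in both lines, in QGP-1 (green circles) and BON-1 (purple squares); filled symbols have an adjusted p below 0.05 from edgeR. VHL lies above 0 in both lines, and RBX1 lies at −1.0 in QGP-1 and near 0 in BON-1 cells.

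Of 62 further genes known as HIF targets, 24 were lower and 10 higher among 56 tested in QGP-1 cells, with a median log2 fold change of −0.26, where 17.7% of all genes were lower and 17.3% higher. The BON-1 counts were 15 lower and 15 higher among 57 tested, with a median of −0.06, where 18.3% of all genes were lower and 17.0% higher. For 52 tested in both, 12 were lower in both and 7 higher in both, against 7.23% and 6.88% of all genes. On log2(TPM + 1), 14 of the 21 genes called lower in QGP-1 cells that reached a mean of 1 TPM and 5 of the 15 called higher in BON-1 cells changed sign as the values stand, and 0 did so relative to the median of all genes. The difference between the lines passed the threshold for 13 of these 52 genes with a response higher in BON-1 cells and for 2 with one lower, beside 10.3% and 9.23% of all genes tested in both.

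The 11 glycolytic enzyme genes among these targets, from HK2 to LDHA, were grouped after their values were seen. Of them 9 were lower and 0 higher in QGP-1 cells, and 6 were lower and 1, HK2, was higher in BON-1 cells, beside the 17.7% and 17.3% and the 18.3% and 17.0% of all genes given above. On log2(TPM + 1), 5 of the 9 changed sign in QGP-1 cells as the values stand, and 0 did so relative to the median of all genes. PGAM1, which encodes phosphoglycerate mutase, was at 213, 223 and 221 CPM with vehicle and 108, 101 and 103 CPM with DOX in QGP-1 cells, and at 209, 203 and 197 CPM against 71.8, 67.6 and 64.2 CPM in BON-1 cells. Its log2 fold changes were −1.07 and −1.58 (edgeR adjusted p = 1.28e-07 and 5.10e-15). Lactate dehydrogenase A (LDHA) had values of −0.97 and −1.14. Without these 11 genes the counts were 15 lower and 10 higher of 45 in QGP-1 cells and 9 lower and 14 higher of 46 in BON-1 cells.

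Of the genes outside that group, DDIT4, an inhibitor of mTORC1 signaling, fell from 14.3, 14.4 and 14.5 CPM to 4.83, 4.74 and 7.55 CPM in QGP-1 cells (log2 fold change −1.34, edgeR adjusted p = 3.83e-05). It was lower in BON-1 cells too, at −1.20 (edgeR adjusted p = 0.000408). AK4, a mitochondrial adenylate kinase gene, was also lower in QGP-1 cells at −1.04, against −0.20 in BON-1 cells, which did not pass the threshold. The difference between the lines for AK4 was 0.84 and missed the threshold (adjusted p = 0.0529 in the edgeR interaction). The glucose transporter gene SLC2A3 (0.56), the secreted stanniocalcin gene STC1 (0.33) and the receptor tyrosine kinase gene MET (0.32) were the most positive in QGP-1 cells. STC1 and MET were also called higher in BON-1 cells, at 0.27 and 0.30, where SLC2A3 did not pass the filter on low counts. In BON-1 cells the glycogen regulator gene PPP1R3C was lower at −0.88, and VLDLR, a lipoprotein receptor gene, was higher at 0.67. VLDLR was also called higher in QGP-1 cells, at 0.27, where PPP1R3C did not pass the filter. The response of VLDLR differed between the lines by 0.41 (adjusted p = 0.0241 in the edgeR interaction).

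Opposite calls in the lines were made for 4 of the 52 genes tested in both, all lower in QGP-1 and higher in BON-1 cells, against 1.50% of all genes in that direction and 1.19% in the other. HK2, the inducible hexokinase gene, went from 66.7, 70.8 and 58.0 CPM to 35.8, 40.1 and 33.7 CPM in QGP-1 cells and from 155, 134 and 137 CPM to 241, 265 and 240.2 CPM in BON-1 cells. Its log2 fold changes were −0.83 and 0.81 (edgeR adjusted p = 2.11e-05 and 4.85e-09). PDK1, which restrains pyruvate entry into mitochondria, had values of −0.60 and 0.39. The collagen lysyl hydroxylase gene PLOD2 had values of −0.26 and 0.75, and the mitochondrial gene FAM162A had values of −0.31 and 0.33. On log2(TPM + 1) as it stands HK2 kept both signs, while the QGP-1 values of PDK1 (0.12), PLOD2 (0.42) and FAM162A (0.43) and the BON-1 value of FAM162A (−0.04) turned. Relative to the median of all genes these were −0.48, −0.17, −0.17 and 0.27. In the panel itself BNIP3, NDRG1, ADM and ANKRD37 had the same signs, lower in QGP-1 and higher in BON-1 cells, but each passed the threshold in 1 line only. The QGP-1 value of ADM (−0.05) and the BON-1 value of ANKRD37 (0.10) were close to none, with groups that overlapped. On log2(TPM + 1) as it stands the QGP-1 values of BNIP3 and NDRG1 and the BON-1 values of BNIP3 and ANKRD37 turned, as given above.

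**Figure D5:**
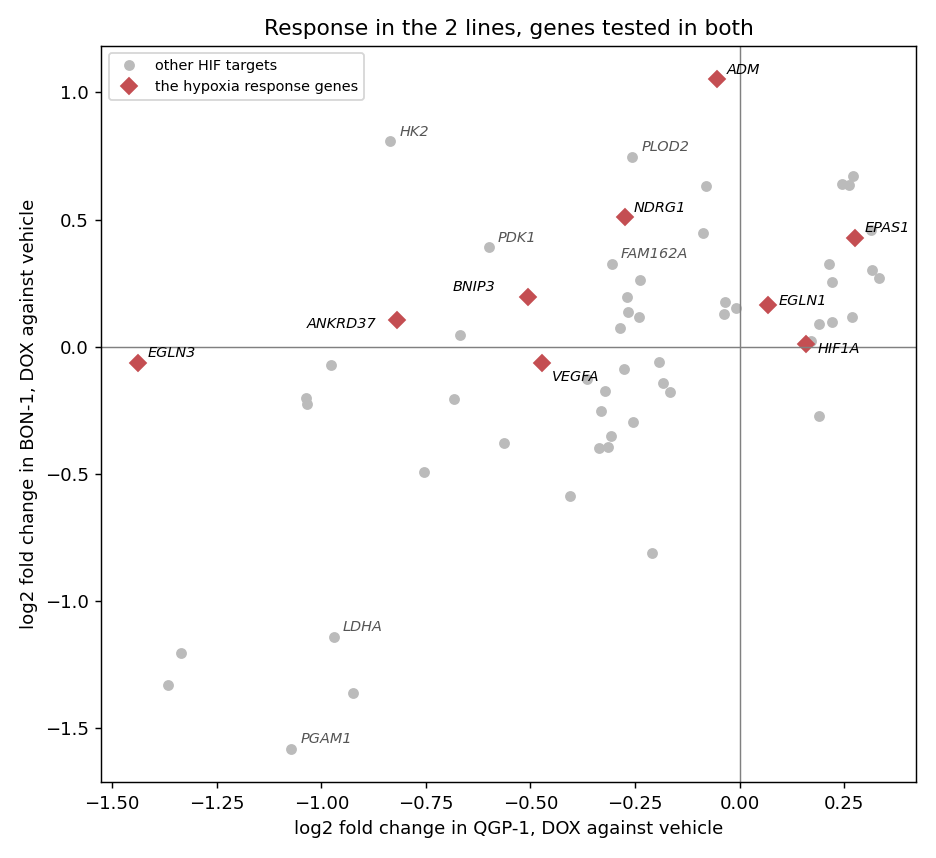
Log2 fold change of DOX against vehicle in QGP-1 (x axis) and BON-1 cells (y axis) for the 9 panel genes (red diamonds) and the 52 other HIF targets (grey points) tested in both lines. HK2, PDK1, PLOD2 and FAM162A lie in the upper left, and PGAM1 and LDHA lie in the lower left.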

How the data were processed

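Total RNA was isolated, and the sequenced libraries were made from it with the TruSeq Stranded mRNA kit. Per the study's methods, the authors aligned reads to GRCh38 with STAR and deposited raw counts and TPM per gene in separate tables of each line; the counting settings, strand included, are not given in the sources used here. Each of the 12 libraries was matched to its group by its label, and 0 columns were left unused. Counts were fitted per line with edgeR 4.0.16 (TMM, filterByExpr, quasi-likelihood test, Benjamini-Hochberg adjustment over all genes tested, calls at an adjusted p below 0.05 without a minimum fold). The study used DESeq2, which served here as an alternative (1.42.0). The lines were compared by an interaction in 1 edgeR fit of all 12 libraries, and levels in CPM use TMM factors. TPM values were tested with limma 3.58.1 on log2(TPM + 1), or a pseudocount of 0.1, for genes with a mean of at least 1 TPM. The edgeR fits were tested on simulated data. Other alternatives were no TMM, no filter, at least 10 counts in every library, a replicate block and leaving out each library. With 3 libraries against 3 an exact permutation test cannot go below p = 0.1, so none was used for single genes. The study calls the triplicates biologic, and p-values measure the spread between these cultures.

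The 10 genes and the gene lists were chosen with earlier results of these data known, and counts over them are descriptions. Named genes were the 10, their partners and paralogs in the lists, the 3 most positive and 3 most negative other HIF targets called in each line (mean log2 CPM not below 3), and those called in opposite directions. The 11 glycolytic genes were grouped after their values were seen. Gene positions are from GENCODE v44 on GRCh38, and promoters from RefSeq GRCh38.p14.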

Additional observations from a re-analysis of the deposited data

Results flagged for a closer look

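The following genes are those whose response to DOX differed between BON-1 and QGP-1 cells, tested as the interaction of line and DOX in edgeR. Only the panel, the other HIF targets called in opposite directions in the 2 lines, and CALCRL and PAM were looked at here. Other listed genes passed this test too, among them RBX1 (0.94, adjusted p = 4.87e-05) and RAMP2 (−2.62, adjusted p = 0.00332). In the panel, the BON-1 minus QGP-1 difference of log2 fold changes was 1.38 for EGLN3 (adjusted p = 8.54e-07), 0.71 for BNIP3 (adjusted p = 0.000448), 0.79 for NDRG1 (adjusted p = 0.00274) and 1.11 for ADM (adjusted p = 0.000925). These 4 calls passed in each of the 12 fits that left out 1 library. It was 0.42 for VEGFA (adjusted p = 0.0438), a call lost in 10 of the 12 such fits.

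Among the other HIF targets the difference was 1.65 for HK2 (adjusted p = 1.76e-09), 1.02 for PLOD2 (adjusted p = 5.68e-07), 1.00 for PDK1 (adjusted p = 6.41e-06) and 0.64 for FAM162A (adjusted p = 0.000691). Among the partners of ADM it was 1.46 for the receptor gene CALCRL (adjusted p = 2.30e-05) and −0.91 for PAM (adjusted p = 4.26e-06). The genes in this paragraph had been called in opposite directions in the 2 lines on the same libraries, so these p-values are not separate support. The line and its medium cannot be told apart in these comparisons.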

How the results depend on the processing

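The number of panel genes called higher in QGP-1 cells was 1 in the edgeR fit and 2 under DESeq2, under library size scaling and with a replicate block, where HIF1A passed at a log2 fold change of 0.16 to 0.17. Same-numbered vehicle and DOX libraries correlated at −0.07 to 0.12 in their deviations, so the numbers were not taken to pair the samples. The replicate block changed 1 other call, the line difference of VEGFA (0.42, adjusted p = 0.0518). That call was also lost by library size (0.34, adjusted p = 0.0971) and without a filter (0.39, adjusted p = 0.111), and library size lost the vehicle difference of ANKRD37 (−0.61, adjusted p = 0.0839).

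On log2(TPM + 1), 89 genes were lower and 9149 higher in QGP-1 cells, with 1 panel gene (EGLN3) lower and 4 (HIF1A, EPAS1, EGLN1 and, with its sign turned, NDRG1) higher of 8 tested. With a pseudocount of 0.1 these were 87, 9139, 1 and 4. In BON-1 cells 335 genes were lower and 34 higher, with 0 panel genes higher, and with 0.1 these were 356 and 44, with 0 panel genes lower and 0 higher. The call of CA9 in BON-1 cells was thus lost with a pseudocount of 0.1. Signs turned, under pseudocounts of 1 and 0.1, for BNIP3 (0.20 and 0.23), NDRG1 (0.44 and 0.47) and VEGFA (0.21 and 0.26) in QGP-1 cells, and for HIF1A (−0.35 and −0.35), EGLN1 (−0.18 and −0.20), BNIP3 (−0.16 and −0.17) and ANKRD37 (−0.18 and −0.28) in BON-1 cells. The cause was not tested. HIF1A in BON-1 cells, close to 0 throughout, was −0.034 by library size, −0.0086 without a filter and −0.0037 with 10 counts in every library.

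Leaving out 1 library gave 1996 to 2614 genes lower and 1975 to 2644 higher in QGP-1 cells, 2194 to 2577 and 1908 to 2196 in BON-1 cells, and 3 to 4 panel genes lower in QGP-1 cells. Log2 fold changes ranged from −0.25 to 0.049 for ADM in QGP-1 cells, and from −0.045 to 0.049 for HIF1A and −0.028 to 0.30 for ANKRD37 in BON-1 cells. CA9 in QGP-1 cells, ANKRD37 in both lines and ADM in QGP-1 cells rest on few counts, which limits what could be detected for them.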
